A study of Mus musculus with 30 samples.

Results

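RNA of the stroke-denervated cervical hemicord at 4 d post-injury (4 dpi) was compared with RNA of the same region in sham-operated mice. All animals labelled 4 dpi or Ctrl that have a column of values were used, and all 16995 genes of the table were ranked. These were 4 animals at 4 dpi and 5 sham-operated animals, 9 of the 29 animals with values in the series. Another animal labelled 4 dpi has no column of values and was not analysed here. All were adult female C57BL/6 mice. The 4 dpi animals had received a unilateral photothrombotic stroke of the right sensorimotor cortex, in which a light-activated dye closes the vessels under the illuminated skull. The group labelled Ctrl was read as the sham-operated group of the study. The tissue was trimmed by blade from the intermediate laminae at cervical levels C5/C6, so each sample is a mixture of the neurons, glia, vessels and immune cells of that region. In such bulk samples, fewer cells of a type and less RNA per cell cannot be told apart.

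Cortical stroke removes the corticospinal axons that end in this region, and the cut axons and their myelin then break down far from the infarct. Microglia, the resident macrophages of the CNS, can answer such anterograde degeneration by dividing, by taking up debris through Fc and complement receptors and by loading antigen. Signalling runs from surface receptors through adaptors that carry an immunoreceptor tyrosine-based activation motif (ITAM). Astrocytes respond with the intermediate filament protein GFAP, while oligodendrocytes form the myelin sheaths and renew themselves from precursors.

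The 9 samples had similar profiles. Pearson's r across genes, taken as a description since genes do not vary independently, was 0.981 to 0.990 for 16 pairs of animals of one group and 0.982 to 0.991 for 20 pairs from both groups. An animal is named below by its label. Animal A9-4 (4 dpi) stood apart in residual ribosomal RNA, with a value of 114026 for the 18S gene Rn18s-rs5. The other 4 dpi animals lay between 18295 and 29279 and the sham animals between 30321 and 52929. Animal A9-2 had the lowest score of the 4 dpi animals in the 11 lists of microglial, phagocyte, complement, antigen, interferon, cytokine and Toll-like receptor genes described below and in the endothelial and pericyte lists. The labelled tissue held its defining markers: the summed values of 19 pan-neuronal genes were 8722 to 11951 at 4 dpi and 8773 to 11351 in sham animals. The thoracic and lumbar genes Hoxa10, Hoxc10 and Hoxd10 have no row in the table. The authors left genes with low expression out of it, so a missing row does not mean that no reads were found. The values are read counts scaled for library size (normalized CPM) and rounded to 0.1, and the depth behind them is unknown.

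At 4 dpi, 14 genes rose and 2 genes fell against sham, which is 0.0824% and 0.0118% of the genes tested and 0.0941% together. These significantly differentially expressed genes (SDEGs) had a limma adjusted p under 0.05 and changed more than 1.5-fold on the log2(value + 0.5) scale. The 14 that rose were Fcgr3, Olfml3, Csf1r, Mpeg1, Ly86, Tmem176a, Lgals3bp, Fcrls, Myo1f, Mki67, Laptm5, C1qc, Cd52 and Gfap, and the 2 that fell were Eml1 and Vgf. Of the genes that passed the adjusted p but not the fold limit, Etv5 had a log2 fold change of -0.47. Around these few calls lay a broader ranking: 472 genes (2.78%) were higher and 402 genes (2.37%) lower at an unadjusted p under 0.05. All values of the 4 dpi animals lay above all sham values for 185 genes (1.09%) and below them for 104 genes (0.612%), together 1.7% of genes. The log2 fold change of all genes had a median of 0.01, and 90% of genes lay between -0.23 and 0.29, with a median standard error (SE) of 0.127.

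Immune genes outnumbered other genes among the first 50 of the ranking, with a smaller share farther down. Of the 16995 genes, 242 (1.42%) belong to the immune lists described below, and these made up 14 of the first 25, 26 of the first 50, 42 of the first 100 and 62 of the first 200 genes when ranked from the highest moderated statistic. Among the 200 genes at the low end there was 1 immune gene. The 43 genes of the oligodendrocyte lists (0.253% of genes) showed the opposite position: 8 were among the 200 genes at the low end, and 0 among the first 200. The plot of ranks shows every member of 10 lists.

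**Figure D1:**
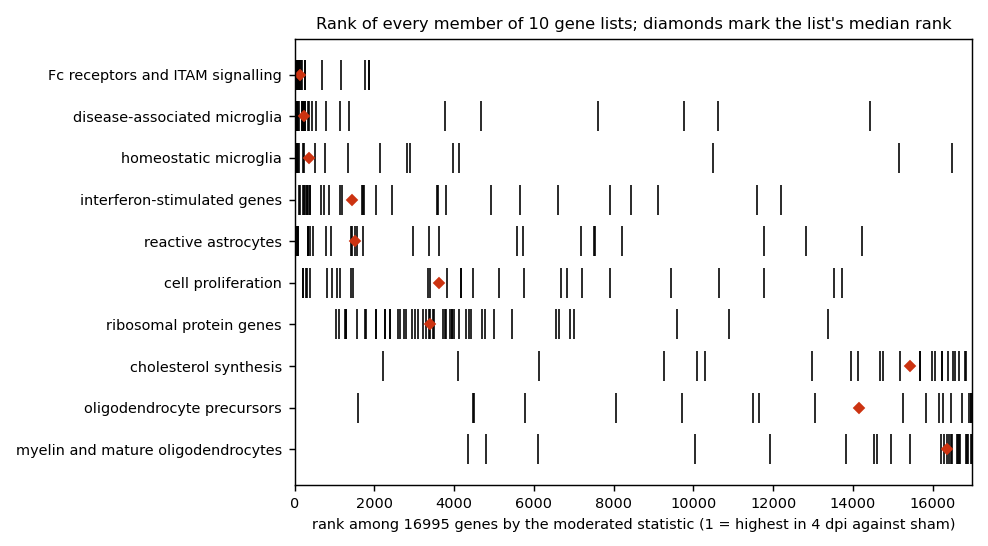
Each vertical line is a member of the gene list named on the y axis, placed on the x axis by its rank among 16995 genes in 4 dpi against sham (moderated statistic, 1 = highest), and diamonds mark the median rank. Members of the Fc receptor and ITAM list gather at the left (median rank 125.5) and members of the myelin list at the right (median rank 16362).

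Of the SDEGs that rose, 3 belong to the homeostatic and 2 to the disease-associated microglia list described below, and several others are known from immune cells. Values are given in the order A10-1, A10-4, A9-2 and A9-4 for 4 dpi and A11-1, A11-4, A12-1, A12-2 and A12-3 for sham. Fcgr3, a low-affinity receptor for the constant part of antibodies, was 6.2, 8.6, 4.8 and 7.6 at 4 dpi and 2.0, 2.2, 2.1, 2.6 and 3.3 in sham animals. Olfml3, a secreted protein enriched in microglia, was 10.9, 13.5, 8.4 and 10.6 against 5.9, 5.5, 6.6, 7.0 and 5.8. In both genes the groups did not overlap, with A10-4 the highest and A9-2 the lowest of the 4 dpi animals. Fcgr3 rose by 1.30 on the log2 scale (SE 0.20, limma adjusted p = 0.00473) and Olfml3 by 0.76 (SE 0.13, limma adjusted p = 0.00915).

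Csf1r, the receptor for the survival factors CSF1 and IL-34 that microglia depend on, was 49.6, 62.2, 40.7 and 56.1 at 4 dpi and 33.6, 31, 26.8, 33.7 and 28.4 in sham animals. Mpeg1, the macrophage pore-forming protein perforin-2, was 16.7, 27.5, 11.4 and 17.5 against 5.8, 7.5, 5.4, 7.5 and 6.9. Cd52, a small surface glycoprotein of leukocytes, was 1.7, 2.4, 0.9 and 2.2 against 0.3, 0.3, 0.1, 0.5 and 0.4. The same order of animals was seen, with A10-4 at the top and A9-2 at the bottom of the 4 dpi group and every sham animal below it. The log2 fold changes were 0.74 for Csf1r, 1.34 for Mpeg1 and 1.45 for Cd52.

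Fcrls, an Fc receptor-like gene that marks resident microglia, was 10.9, 18.4, 7.5 and 12.3 at 4 dpi and 5.3, 5.1, 5.5, 6.4 and 4.7 in sham animals. Ly86, the partner of the Toll-like receptor homolog CD180, was 5.4, 6.9, 3.4 and 6.2 against 2.2, 2.1, 2.4, 2.6 and 1.6. Laptm5, a lysosomal membrane protein of blood cells and microglia, was 11.7, 17.1, 11.6 and 18.5 against 7.2, 7.6, 6.6, 9.5 and 6.7. All sham animals lay below all 4 dpi animals in these 3 genes, and A9-2 was again the lowest at 4 dpi. Their log2 fold changes were 1.05 for Fcrls, 1.13 for Ly86 and 0.91 for Laptm5, with limma adjusted p of 0.0223, 0.00957 and 0.0355.

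Tmem176a, a channel-like protein of antigen-presenting cells, was 9.2, 9.7, 7.2 and 10.1 at 4 dpi and 4.7, 3.9, 5.8, 4.2 and 5.1 in sham animals. Lgals3bp, a secreted glycoprotein that binds galectins, was 13.1, 13.6, 11.3 and 12.1 against 5.6, 6.4, 7.1, 7.2 and 7.0. Myo1f, an unconventional myosin of immune cells, was 3.1, 4.6, 2.1 and 4.8 against 1.0, 1.1, 1.3, 1.5 and 2.0. The groups did not overlap in any of these 3 genes, although the lowest Myo1f value at 4 dpi lay only 0.1, the rounding step, above the highest sham value. The log2 fold changes were 0.87 for both Tmem176a and Lgals3bp and 1.11 for Myo1f (limma adjusted p = 0.0112, 0.0189 and 0.0355). In the plot of SDEG values, the overlap between groups is limited to C1qc, Gfap and Eml1.

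**Figure D2:**
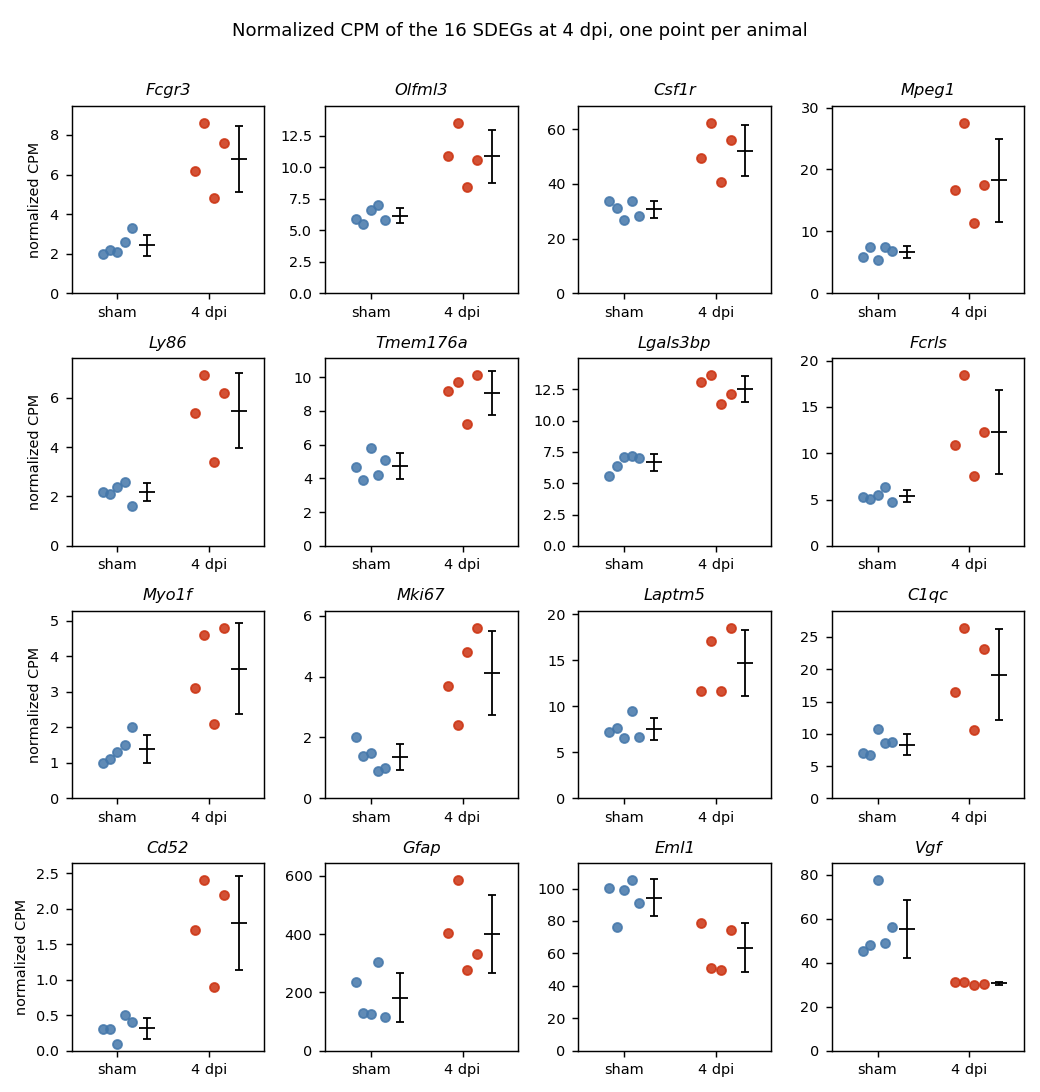
Normalized CPM (y axis, from 0) of the 16 SDEGs in each of 5 sham animals (blue) and 4 animals at 4 dpi (red); the black mark and bar show the mean and SD of the group. In 13 of the 16 genes no sham animal reaches the range of the 4 dpi animals; the exceptions are C1qc, Gfap and Eml1.

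Single genes were also tested by an exact two-sided permutation of the group labels, for which 0.0159 is the smallest possible p. This value was reached by 13 of the 16 SDEGs, and C1qc, Gfap and Eml1 had an exact permutation p of 0.0317. The SDEGs were chosen on the same animals, and groups that do not overlap always give the smallest p. These p-values therefore add no separate evidence for the calls. The calls depended on single animals to different degrees. Leaving out each of the 9 animals in turn, Fcgr3 and Vgf remained SDEGs in 9 of 9 fits, Olfml3 in 8, Csf1r, Mpeg1 and Ly86 in 7, and Tmem176a in 6. Lgals3bp and Eml1 remained in 4, Fcrls, Laptm5 and Gfap in 3, Myo1f and Mki67 in 2, and C1qc and Cd52 in 1. Without A10-4 there were 3 SDEGs, without A9-4 there were 4, and without A9-2 there were 33.

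Promoter sequence of the SDEGs of both directions was searched for a site of a macrophage factor, since many of those that rose are macrophage genes. PU.1, the transcription factor that microglia and macrophages depend on, binds purine-rich sites with the core GAGGAAG. RefSeq promoters (GRCm38.p6) were found for 13 of the 16 SDEGs. A gene can have several RefSeq transcripts, and the start of each was used. Within the 250 bases before such a start, GAGGAAG on either strand was present in 5 of these 13 genes and in 12% of all 27025 genes with a promoter. The 5 sites are shown with 10 bases on each side, read 5′ to 3′ on the strand of the gene, with capitals marking GAGGAAG or its reverse complement CTTCCTC.
Fcgr3: agtccatttcCTTCCTCtttttgtagt
Fcrls: agtctgtaaaGAGGAAGgacgtttgct
Laptm5: cagcctgtggCTTCCTCttttttgttc
C1qc: acggcagacaCTTCCTCattttggcac
Tmem176a: cacccaggttCTTCCTCctgccagggc
The windows lie at chr1:171059394-171059420 on the minus strand for Fcgr3, chr3:87263652-87263678 on the minus strand for Fcrls, and chr4:130913267-130913293 on the plus strand for Laptm5. Those of C1qc and Tmem176a lie at chr4:136893092-136893118 on the minus strand and chr6:48841481-48841507 on the plus strand. Relative to the gene bounds in the table of values, 4 of the 5 windows lie within the gene, whose bounds reach farther upstream, and only that of C1qc lies before it. A match is a description of the sequence and not evidence of binding. Longer PU.1-type strings that overlap this core were rarer: GAGGAAGT was found in 1 of the 13 genes and 2.79% of all genes, and AGGAAGTG in 3 of the 13 and 3.62%. The cyclic AMP response strings TGACGTCA and TGACGTAA and the STAT-type string TTCNNNGAA were found in 0 of the 13 genes and in 1.77%, 0.525% and 8.13% of all genes.

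Of the immune lists, that of Fc receptor and ITAM signalling had the highest median. Of 25 listed genes, 20 have a row, and all 20 had a positive log2 fold change. The median was 0.54 against 0.01 over all genes, and 15 of the 20 had an unadjusted p under 0.05 with a higher value at 4 dpi, against 2.78% of all genes. Fcgr3 was the only SDEG among them. Clec7a, a phagocytic receptor for fungal glucans that reactive microglia express, was 0.6, 3.8, 1.8 and 2.0 at 4 dpi and 0.3, 0.1, 0.2, 0.0 and 0.3 in sham animals. It was higher in every 4 dpi animal, but its log2 fold change of 1.77 did not pass the threshold (limma adjusted p = 0.104). Vav1, an exchange factor downstream of ITAM receptors, and Inpp5d, the lipid phosphatase SHIP1, had log2 fold changes of 0.88 and 0.61 and were not SDEGs. The score of this list, the mean over its genes of the log2 value minus the sham mean, was 0.54, 0.94, 0.33 and 0.65 in the 4 dpi animals and -0.07 to 0.07 in sham animals.

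Microglial markers were divided into genes of the resting state and genes that microglia induce around damage. Of 22 homeostatic markers, 11 had an unadjusted p under 0.05, all higher at 4 dpi, with a median log2 fold change of 0.31. Besides the SDEGs Olfml3, Fcrls and Csf1r, Cx3cr1, the fractalkine receptor, was 18.5, 25.2, 16.2 and 22.4 at 4 dpi and 12.9, 14.0, 14.3, 15 and 13.9 in sham animals. The groups did not overlap, but the log2 fold change of 0.52 did not pass the threshold (limma adjusted p = 0.0638). The defining markers P2ry12, Tmem119 and Sall1 had smaller differences, of 0.25, 0.25 and 0.10, none of them with an unadjusted p under 0.05.

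Of 35 genes that disease-associated microglia induce, 31 have a row, and 21 of these had an unadjusted p under 0.05, all higher at 4 dpi, with a median of 0.44. The list's scores did not overlap, with 0.25 to 0.84 at 4 dpi and -0.05 to 0.07 in sham animals. Grn, the lysosomal regulator progranulin, was 19.1, 32.7, 16.1 and 26.4 at 4 dpi and 13.8, 12.8, 12.9, 14.3 and 13.5 in sham animals, a log2 fold change of 0.74 that narrowly missed the threshold (limma adjusted p = 0.054). Ccl6, a chemokine of macrophages, was 1.2, 2.9, 1.2 and 2.9 against 0.5, 0.4, 0.2, 0.4 and 0.4. Both genes were higher in all 4 dpi animals than in any sham animal. Not all members shared this: Apoe, Spp1 and Igf1, chosen after their values were seen, had log2 fold changes of 0.12, -0.02 and 0.02. Without A10-4 the count was 13 of 31.

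**Figure D3:**
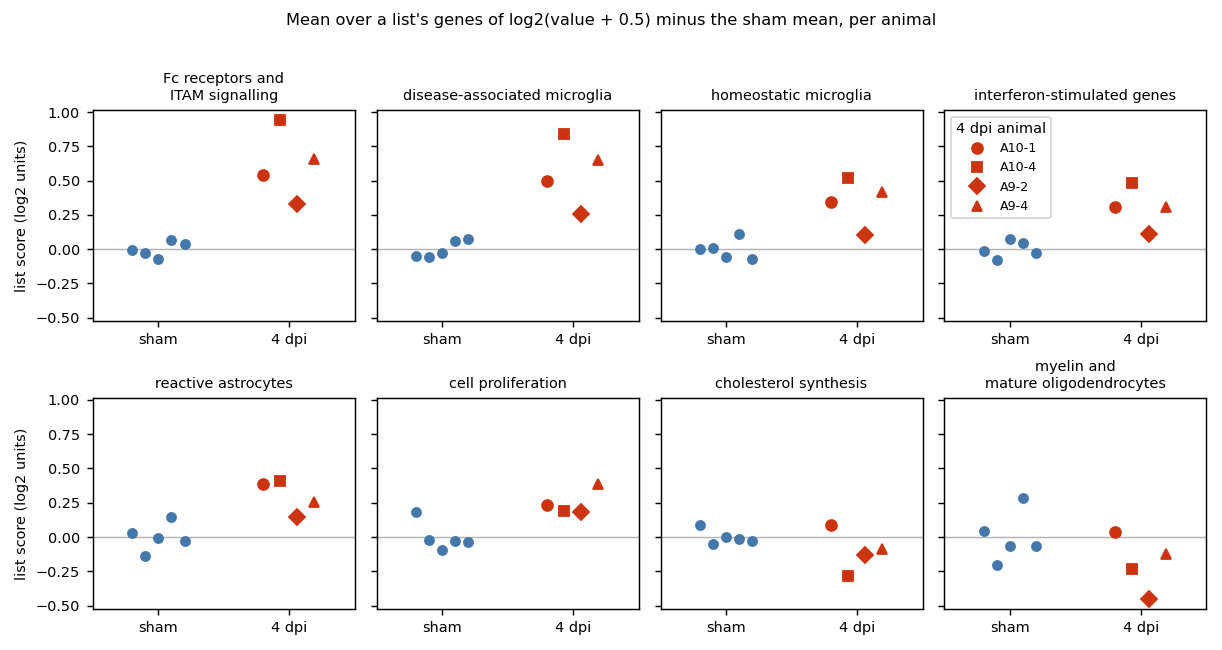
Scores of 8 gene lists (y axis, log2 units relative to the sham mean) in 5 sham animals (blue) and 4 animals at 4 dpi (red, one symbol per animal). A10-4 has the highest and A9-2 the lowest score of the 4 dpi animals in the Fc receptor and both microglial lists, and the groups overlap in the homeostatic microglia, cell proliferation, cholesterol and myelin lists.

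Genes of phagocytosis and the lysosome gave a mixed picture. Of 37 genes with a row, 14 were higher and 1 was lower at an unadjusted p under 0.05, with a median of 0.17. Laptm5, Grn and Ctss, all known from microglia, were among those at the top. Ctss, the protease cathepsin S that cuts the invariant chain of MHC class II, was 36, 43.8, 22.9 and 35.9 at 4 dpi and 16.1, 16.9, 19.7, 18.6 and 18.7 in sham animals (log2 fold change 0.89, limma adjusted p = 0.128). No sham animal reached the lowest 4 dpi animal.

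Complement genes divided into members with large and with near-zero differences. Of 36 listed genes 25 have a row, and 9 had an unadjusted p under 0.05, all higher at 4 dpi, while the median of the list was 0.05. That median rested on single animals, since it was 0.19 without A9-2, 0.11 without A11-4 and 0.10 without A10-4. The 3 chains of C1q, the molecule that starts the classical cascade, had log2 fold changes of 1.09 for C1qc, 0.97 for C1qb and 0.92 for C1qa, of which only C1qc was an SDEG. C1qc was 16.4, 26.4, 10.6 and 23.1 at 4 dpi, and 1 sham animal at 10.7 lay above the lowest of these. C3, the central component, and the terminal inhibitor Cd59a were chosen after their values were seen and had log2 fold changes of -0.02 and -0.20. The terminal components C6, C7 and C9 have no row.

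Antigen presentation genes were next. Of 21 class I genes with a row, 6 had an unadjusted p under 0.05, all higher at 4 dpi, with a median of 0.26. B2m, the light chain of class I molecules, was 47.1, 44.1, 35.7 and 43.7 at 4 dpi and 22.1, 26.5, 35.6, 30.4 and 33.7 in sham animals. Psmb8, an interferon-induced proteasome subunit, was 1.5, 2.0, 1.3 and 2.1 against 0.9, 0.3, 0.7, 0.9 and 0.7. Both were higher in every 4 dpi animal than in every sham animal, B2m by only 0.1 at its closest. The log2 fold change of B2m was 0.53 (limma adjusted p = 0.248) and that of Psmb8 was 0.90 (limma adjusted p = 0.104), and neither passed the threshold. Nlrc5, the transactivator of class I genes, had a log2 fold change of 0.83 and H2-K1, a class I heavy chain, of 0.49. Of 15 class II genes only 8 have a row, and the chains H2-Aa, H2-Ab1 and H2-Eb1 are not among them. Ctss, the thiol reductase Ifi30, the costimulator Cd86 and the loading factor H2-DMa had log2 fold changes of 0.89, 0.89, 0.69 and 0.39, with 5 of 8 genes at an unadjusted p under 0.05. The class II count was 3 without any one of A10-1, A9-4, A12-1 or A12-3.

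No interferon-stimulated gene was an SDEG. Of 32 with a row, 11 had an unadjusted p under 0.05, all higher, with a median of 0.26, and the list's scores were 0.11 to 0.48 at 4 dpi and -0.08 to 0.08 in sham animals. Irf8, a transcription factor that myeloid cells and microglia require, was 2.8, 5.5, 2.3 and 3.3 at 4 dpi and 1.4, 1.7, 1.4, 1.3 and 1.5 in sham animals. Irf7, which drives type I interferon production, was 2.0, 2.7, 1.4 and 2.1 against 0.9, 1.1, 1.2, 1.3 and 1.1. No values of these genes overlapped between groups. Irf8 differed by 0.96 (limma adjusted p = 0.054) and Irf7 by 0.64 (limma adjusted p = 0.454) on the log2 scale. The antiviral genes Trim30a and Ifitm3 had log2 fold changes of 0.61 and 0.54. Without A10-4 the count was 6 of 32 and without A9-4 it was 7, and the median was 0.41 without A9-2.

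Cytokines themselves were little represented in the table, which leaves out genes with low expression. Only 17 of 37 listed cytokines and chemokines have a row, and Il1b, Tnf, Il6 and Ccl2 are not among them. Ccl6 (log2 fold change 1.46) and Ccl9 (0.53) were higher and Tgfb3 (-0.30) was lower at an unadjusted p under 0.05, with a list median of 0.07 that ranged from -0.02 without A11-1 to 0.14 without A9-2. Of their receptors, 28 have a row, and 7 were higher and 0 lower at that limit. These included the SDEG Csf1r and Csf3r, the receptor for the granulocyte growth factor, at 3.6, 5.8, 3.3 and 4.2 against 2.1, 1.5, 1.9, 2.8 and 2.5. Tgfbr1, a receptor for the factor that keeps microglia in the resting state, had a log2 fold change of 0.47 and Osmr, the oncostatin M receptor, of 0.61. Among 26 genes of Toll-like receptors and the inflammasome, 5 were higher and 0 lower at an unadjusted p under 0.05. They were led by Ly86, with the co-receptor Cd14 at 0.68 and the Ly86 partner Cd180 at 0.77, and the list median was 0.13 (0.20 without A10-1).

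Cell division genes were represented by 1 SDEG. Mki67, the proliferation marker Ki-67, was 3.7, 2.4, 4.8 and 5.6 at 4 dpi and 2.0, 1.4, 1.5, 0.9 and 1.0 in sham animals, with a log2 fold change of 1.29 (SE 0.26, limma adjusted p = 0.0355). Top2a, the DNA topoisomerase of dividing cells, was 3.1, 2.8, 4.0 and 5.5 against 1.9, 1.9, 1.2, 1.9 and 2.0 and narrowly missed the threshold (0.91, limma adjusted p = 0.054). Both were highest in A9-4, and in contrast to the microglial genes A10-4 was the lowest of the 4 dpi animals. Cenpe and Prc1, which act in chromosome movement and in cell cleavage, had log2 fold changes of 0.48 and 0.44. Of 30 proliferation genes with a row, 7 were higher and 0 lower at an unadjusted p under 0.05, with a median of 0.18. The replication licensing genes Mcm2 and Mcm7, chosen after their values were seen, had log2 fold changes of 0.02 and -0.08. The scores of the list overlapped between groups, and without A9-4 the count was 3 of 30. Which cells divided was not tested. The study counted cells with Iba1, a marker of microglia and macrophages, on sections. It found more of them at 4 dpi in the corticospinal tract of the dorsal funiculus but not in the tract's gray matter projection area.

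Of the astrocyte genes, Gfap, the intermediate filament protein, was an SDEG. It was 405.2, 584.3, 277.5 and 330.6 at 4 dpi and 236.0, 130.5, 125.9, 303.3 and 116.9 in sham animals. The mean rose from 183 ± 83.2 (SD, n = 5) to 399 ± 134 (SD, n = 4), a log2 fold change of 1.18 (SE 0.25, limma adjusted p = 0.048), and 1 sham animal at 303.3 lay above the lowest 4 dpi animal. Of 29 genes of the reactive astrocyte list with a row, 10 were higher and 0 lower at an unadjusted p under 0.05, with a median of 0.24. Psmb8, Cd14 and Osmr, the next members by rank, also belong to the immune lists above. The count was 5 without A10-4 and 6 without A10-1. Of 23 homeostatic astrocyte genes, 4 were higher and 1 was lower at that limit, with a median of 0.08. Without A10-1 the counts were 3 and 4, and without A10-4 they were 2 and 0. Aldh1l1, the folate enzyme used as a marker of all astrocytes, had a log2 fold change of 0.19, and Glul, the glutamine synthetase, of -0.21.

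**Figure D4:**
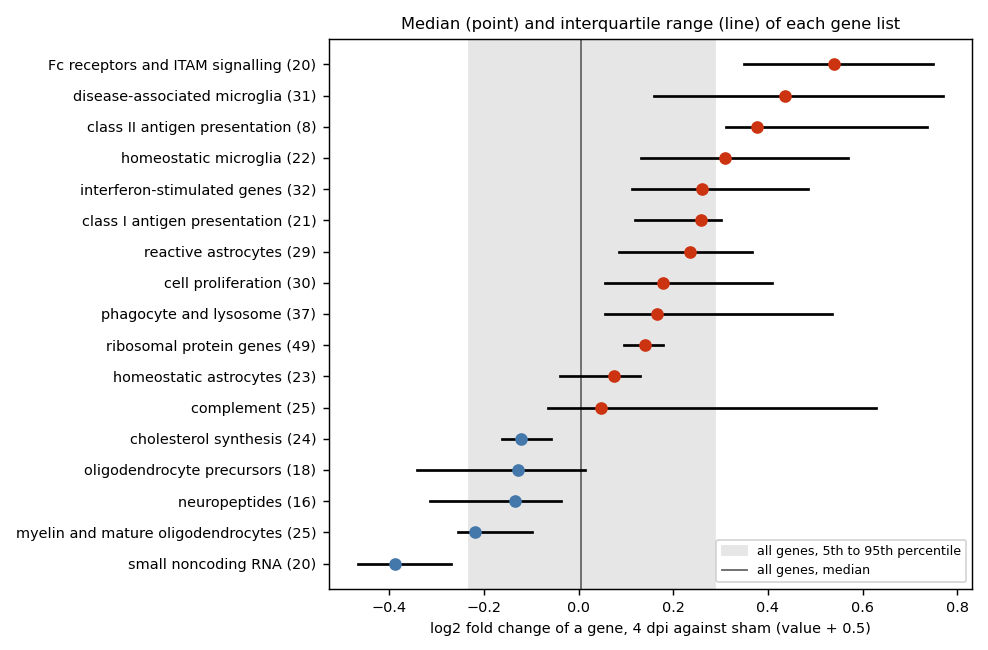
Median (point) and interquartile range (line) of the log2 fold changes at 4 dpi against sham for 17 gene lists, with the number of genes with a row in brackets; the grey band holds 90% of all genes. Of the lists shown, the Fc receptor and ITAM list has the highest median (0.54) and small noncoding RNA the lowest (-0.39).

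The lower end of the ranking held genes of oligodendrocytes. Of 25 genes of myelin and mature oligodendrocytes, 22 had a negative log2 fold change and 9 were lower and 0 higher at an unadjusted p under 0.05, against 2.37% of all genes. None was an SDEG, and the median was -0.22. Hapln2, a link protein at the nodes of Ranvier, was 39.2, 33.7, 27.5 and 35.7 at 4 dpi and 53.6, 38.7, 52.6, 57.1 and 46.4 in sham animals (log2 fold change -0.54, limma adjusted p = 0.0904). Trf, the iron carrier transferrin that oligodendrocytes make, was 633.8, 526.2, 409.6 and 561.4 against 811.9, 593.5, 653.5, 784.6 and 622.9. Both were lowest in A9-2. The highest 4 dpi animal lay above 1 sham animal for Hapln2 and above 2 for Trf. Ermn, a cytoskeletal protein of the myelin sheath, had a log2 fold change of -0.34. The score of the list was 0.04, -0.24, -0.45 and -0.12 in the 4 dpi animals and -0.20 to 0.29 in sham animals. These counts moved with single animals of either group: 2 genes were at the limit without A9-2 (median -0.12) and 2 without the sham animal A12-2 (median -0.14), while there were 14 without A10-1 and 16 without A11-4. When every animal was scaled to the same sum, ribosomal RNA included, 0 myelin genes reached the limit and the median was -0.20.

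Of 18 genes of oligodendrocyte precursors and newly formed oligodendrocytes, 4 were lower and 0 higher at an unadjusted p under 0.05, with a median of -0.13. They were Gpr17, a receptor that marks committed precursors, at 23.9, 18.4, 21.9 and 25.8 against 26.0, 24.5, 31, 38.5 and 31, and Bcas1, Neu4 and Enpp6, all 3 of which are used as markers of newly formed oligodendrocytes. Their log2 fold changes were -0.41, -0.34, -0.40 and -0.40. Without the sham animal A11-1 the median was -0.07. The defining precursor markers Pdgfra and Cspg4 had log2 fold changes of -0.11 and 0.09. The scores of the precursor list did not overlap, with -0.19 to -0.13 at 4 dpi and -0.09 to 0.17 in sham animals. Cholesterol synthesis, which supplies myelin lipid, had a median of -0.12 over 24 genes, of which 21 were negative. Only Cyp51, Idi1 and Fdft1 were lower at an unadjusted p under 0.05 (log2 fold changes -0.20, -0.25 and -0.19). That count was 10 without A10-1 (median -0.20) and 0 without A10-4 (median -0.06), so it rested on single animals.

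Most neuronal lists lay near the middle of the ranking. The medians of the pan-neuronal, excitatory, inhibitory, synaptic vesicle and postsynaptic lists were between -0.00 and 0.06. In these 5 lists, 1 gene was higher and 1 was lower at an unadjusted p under 0.05, the latter being Elavl3, a neuronal RNA-binding protein, at -0.16. Without A10-1 the counts were 7 higher and 2 lower, and without A9-2 they were 0 and 6. Of 25 growth-associated genes, 0 reached that limit in either direction, and Gap43 had a log2 fold change of -0.10. Without A9-2, 2 genes of that list were higher, and without A10-1 or A9-4, 1 was lower. Lists of neuropeptides and of motor neurons had lower medians. Of 16 neuropeptide genes with a row, 14 had a negative log2 fold change, with a median of -0.14, and 2 were lower at an unadjusted p under 0.05, Calca and Calcb. The median was -0.05 without A12-1 and -0.08 without A9-2, and 1 gene was lower without any one of A10-4, A9-4, A12-1 or A12-2. Calca, which encodes calcitonin gene-related peptide and is made by motor and sensory neurons, was 15.4, 2.2, 3.2 and 5.4 at 4 dpi and 8.3, 13.6, 28.5, 20.4 and 8.8 in sham animals. The groups overlapped through A10-1, and the log2 fold change of -1.42 did not pass the threshold (limma adjusted p = 0.272). Of 14 cholinergic and motor neuron genes, 11 were negative with a median of -0.23, and only Calca reached the unadjusted limit. The scores of that list ran from -1.16 (A10-4) to 0.82 (A10-1) at 4 dpi and from -0.60 to 0.57 in sham animals. Without A10-4 its median was 0.07, and without A10-1 it was -0.72 with 7 genes lower.

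The SDEG Vgf, a neuropeptide precursor that is induced by neurotrophins and activity, was 31.2, 31.5, 30.1 and 30.3 at 4 dpi and 45.3, 48.3, 77.5, 49.1 and 56.5 in sham animals. The 4 dpi animals were nearly equal, and all of them lay below all sham animals.

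Several genes that neuronal activity is known to induce also had lower values. Arc, which regulates glutamate receptors at synapses, was 17.1, 13.5, 11.9 and 17.6 at 4 dpi and 19.6, 18.1, 19.5, 24 and 21.4 in sham animals (log2 fold change -0.45, limma adjusted p = 0.134). Bdnf, the brain-derived neurotrophic factor, was 2.8, 3.0, 3.4 and 2.7 against 4.0, 4.1, 6.2, 4.4 and 5.6 (-0.61, limma adjusted p = 0.275). Neither gene overlapped between groups and neither was an SDEG. The wider set did not share this: of 32 immediate early genes only Arc had an unadjusted p under 0.05, the list median was -0.06 (-0.15 without A9-4, with 3 genes lower, and 0.05 without A10-1), and its scores ran from -0.39 to 0.34 at 4 dpi and from -0.13 to 0.12 in sham animals.

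The remaining genes at the low end had different functions. Eml1, a microtubule-binding protein, was 78.6, 51.2, 50 and 74.5 at 4 dpi and 100.3, 76.1, 99.3, 105.0 and 91.1 in sham animals. Its log2 fold change of -0.59 lay at the fold limit (limma adjusted p = 0.0112), and 1 animal of each group overlapped. Etv5, an ETS transcription factor downstream of growth factor receptors, was 31, 25, 26.6 and 28.4 against 39.1, 30.3, 44.1, 41.8 and 38.5. Of its 31-base words, 30.3% occur in the predicted gene Gm4798, so its value may hold reads of that gene. Spast, a microtubule-severing protein, was 30.2, 29.8, 31.3 and 30.8 against 36.8, 35.3, 34.6, 37.9 and 34.7, a small difference of -0.23 with little spread in either group. Vegfa, the vascular growth factor, and Unc5b, a netrin receptor, had log2 fold changes of -0.43 and -0.39. Tmem151b (-0.25) shares 15.1% of its exonic bases with the antisense gene Tcte1. The library kit does not mark strand, so reads of the shared bases cannot be told apart.

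Other cell types that the tissue could hold were examined by their markers. Most markers of lymphocytes and neutrophils have no row: 4 of 19 for T and NK cells, 4 of 10 for B cells and 3 of 14 for neutrophils have one, and the defining neutrophil genes S100a8, S100a9 and Ly6g are absent from the table. No T, NK or B cell gene reached an unadjusted p under 0.05. Of the 3 neutrophil genes, Csf3r (0.82), given above among the receptors, was higher at that limit. Of 10 genes of monocytes and border macrophages with a row, Fn1 (0.44) and Stab1 (0.38) were higher and Ly6c2 (-0.58), a marker of blood monocytes, was lower at that limit. The higher count was 0 without A10-4 and 1 without A9-2 or A12-1, and the lower count was 0 without A9-4 or A11-4. The monocyte receptor Ccr2 had a log2 fold change of -0.10. The summed values of the monocyte list were 54.1 to 75.2 at 4 dpi and 37.9 to 52.8 in sham animals, those of the T and NK cell list 3.3 to 4.6 and 3.5 to 4.5, and those of the endothelial list 347 to 393 and 351 to 384. Of 16 genes of meninges and fibroblasts, 4 were higher and 0 lower at an unadjusted p under 0.05 (Ptgds, Mgp, Igf2 and Islr), with a median of 0.29. The summed values of that list were 390 to 474 at 4 dpi and 292 to 408 in sham animals, and the count was 0 without the sham animal A11-1 and 1 without A10-1. Of 8 genes of ependyma, the lining of the central canal, 7 had a positive log2 fold change, with a median of 0.44, and none reached an unadjusted p under 0.05 in either direction. That median was 0.23 without the sham animal A12-1 and 0.67, with 3 genes higher, without the sham animal A12-3, and the mean log2 level of the list relative to the sham mean overlapped between the groups, at -0.05 to 0.75 at 4 dpi and -0.56 to 0.82 in sham animals. Of 23 endothelial genes, Ly6a (0.53), Vwf (0.51) and Vcam1 (0.25) were higher and Kdr (-0.43) was lower at that limit, with a median of 0.02, and the lower count was 2 without A11-4 and 0 without A9-2 or A12-2. Of 14 genes of pericytes and smooth muscle, 3 were higher (Notch3, Tagln and Myl9) and 0 lower, with a median of 0.03, and the higher count was 1 without A10-1 and 0 without A10-4. Of 6 genes of Schwann cells and peripheral nerve, 1 was higher, 0 were lower and 5 had a negative log2 fold change, with a median of -0.08. The counts were 0 higher and 1 lower without A10-1 or A9-4, and 0 and 0 without A11-1, A12-1 or A12-2. Without A10-4 that median was 0.02. None of 6 erythroid genes reached the limit, but A9-4 stood apart in them: its mean log2 level relative to the sham mean was 1.25, against -0.58 to -0.23 in the other 4 dpi animals and -0.31 to 0.37 in sham animals. The median of the erythroid list was -0.10, and it was -0.42 without A9-4, 0.19 without A10-4 and 0.11 without A9-2. The part of these cells in the immune results was not tested.

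The groups at 7 and 14 dpi were compared directly with 4 dpi, and those at 28 and 42 dpi were not. Between 4 and 7 dpi limma called 0 SDEGs. An unadjusted p under 0.05 was reached by 495 genes (2.91%), of which 369 were higher at 4 dpi. Between 4 and 14 dpi there were 3 SDEGs (0.0177%), all higher at 4 dpi, and 1689 genes (9.94%) reached the unadjusted limit, 1026 of them (6.04%) higher at 4 dpi. Ribosomal RNA genes made up 9.62% to 61.4% of an animal's summed values at 14 dpi and 6.14% to 24.2% at 4 dpi, and their part in this comparison was not tested. Mki67 was one of the 3: its mean was 4.13 ± 1.39 at 4 dpi (SD, n = 4), 1.36 ± 0.439 in sham animals, 1.38 ± 0.804 at 7 dpi and 1.22 ± 0.554 at 14 dpi (SD, n = 5 each). Against 14 dpi the log2 fold change of Mki67 was 1.43 (limma adjusted p = 0.0403) and against 7 dpi it was 1.34 (limma adjusted p = 0.0985). Vwf, the endothelial clotting protein, was the second, at 11.8 ± 1.75 at 4 dpi (SD, n = 4) and 6.28 ± 1.07 at 14 dpi (SD, n = 5). Its log2 fold change between these groups was 0.86 (limma adjusted p = 0.0403). The third was Rn7s6, a 7S RNA gene.

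For the other SDEGs of 4 dpi against sham, no difference between 4 and 7 dpi or between 4 and 14 dpi was called. The log2 fold change of Fcgr3 against sham was 1.30 at 4 dpi, 0.62 and 0.58 after 7 and 14 d, and 0.00 and 0.31 after 28 and 42 d. In the same order that of Gfap was 1.18, 0.61, 0.11, 0.14 and 0.06, and that of Fcrls 1.05, 0.29, 0.05, -0.17 and -0.22. That of Vgf was -0.81, -0.67, -0.45, -0.22 and -0.59. These comparisons share the sham animals. Across the same times, the medians of the Fc receptor and ITAM list were 0.54, 0.23, 0.21, 0.23 and 0.22, and those of the cell proliferation list 0.18, -0.01, -0.04, 0.01 and 0.06. Those of the myelin list were -0.22, -0.15, -0.09, -0.28 and -0.29, so that its lowest medians lay at the last 2 times. Ribosomal RNA genes made up 13.7% to 62.2% of an animal's summed values at 28 dpi and 21.8% to 49.5% at 42 dpi. Their part in these medians was not tested.

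Shared sequence limits some of these values. Fcgr3 shares 13.4% of its 31-base words with Fcgr2b, which was itself higher (log2 fold change 0.66), and 14.5% of the exonic bases of Cd52 and 15.1% of those of Csf1r overlap antisense genes, Crybg2 and Hmgxb3. The offset of 0.5 shrinks the fold changes of weakly expressed genes such as Cd52.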

How the data were processed

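RNA of the intermediate layer of the C5/C6 hemicord of perfused mice was sequenced after ribosomal depletion (Ribo Zero Gold, TruSeq RNA Sample Prep v2, Illumina HiSeq). The authors quantified transcripts with SALMON and Tximport against mm10 and normalized them with edgeR (3.14.0 under R 3.4.1 in the submitters' processing notes). The deposited values are normalized CPM rounded to 0.1, treated here as a score since library totals and counts are unknown. A further 30 columns with the authors' own comparisons (fold changes, test statistics and p-values) were not used.

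Values were taken as log2(value + 0.5) without a further filter. The authors had already excluded genes with low expression. One mean per group was fitted over 6 groups and 29 animals with limma 3.58.1 (R 4.3.3) with a trend in the variance, and p-values were adjusted by Benjamini-Hochberg over 16995 genes. Genes with an adjusted p below 0.05 whose change exceeded 1.5-fold were called SDEGs. Since the values are not counts, limma replaced a count model. Exact permutation tests, list scores and sequence matches used Python 3.11.15, scipy 1.17.1, numpy 2.4.6 and pandas 2.3.3, and figures matplotlib 3.10.9. On simulated data for 4 dpi against sham, 87% of genes changed by 0.8 (log2) and 98.5% of those changed by 1.5 were recovered, with 3 and 5 false calls. The changed genes were drawn only above a level that the sham means of Cd52 and Mki67 do not reach. The noise was independent for each gene and animal. These shares therefore do not cover weakly expressed genes or shifts shared by the genes of an animal.

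The gene lists and the genes compared were chosen with earlier results of these data known, so no list was tested as a set. Lists are described by their counts and medians. Genes named are the SDEGs, the first 15 higher and lower genes with an official symbol, up to 4 genes of a list by the size of the moderated statistic, and defining markers, and other genes are said to be chosen after their values were seen. Promoters were RefSeq promoters of GRCm38.p6, and overlaps between genes were taken from GENCODE. The library kit does not mark strand. Nothing in the sources used here says whether animals with the same first number in their label share a cage or a day, so that number was used only as a random block in an alternative. No first number is shared between 4 dpi and sham animals, so its part in their differences cannot be told apart from stroke. Alternatives were the groups compared only, no trend, other offsets, a filter, quantile normalization, equal sums, a ribosomal RNA covariate, other thresholds and leaving out each animal. Some genes that the rule names are not reported here.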

Additional observations from a re-analysis of the deposited data

Results flagged for a closer look

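Groups were tested for 1 animal far from the rest (Dixon's ratio), using the values of single genes and the list scores. Of 174 such groups 7 were picked out, 4.02%, where chance alone picks about 1 in 20. All 7 were groups of list scores, so the share among list scores alone is higher. Animal A9-2 was the lowest of the 4 dpi animals in the scores of class I antigen presentation (0.0707), endothelial cells (-0.134) and pericytes and smooth muscle (-0.111). Animal A9-4 was the highest in ribosomal RNA (1.28). Among sham animals, A11-1 was the highest in cell proliferation (0.185) and in pituitary genes (0.274), and A11-4 was the highest in glucocorticoid-responsive genes (0.314). A direct test between 4 and 14 dpi (limma) picked out Mki67 (1.43 higher at 4 dpi on the log2 scale, adjusted p = 0.0403), Vwf (0.86, adjusted p = 0.0403) and Rn7s6 (2.23, adjusted p = 0.00125). Rn7s6 had a log2 fold change of -0.40 at 4 dpi against sham.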

How the results depend on the processing

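Between 4 dpi and sham, the count of 16 SDEGs became 9 with only the groups compared and 9 without the variance trend. Some of the 9 called with only the groups compared were not among the 16. There were 25 with the first number of the animal label as a random block (consensus correlation -0.04) and 25 at an adjusted p under 0.1. Leaving out each animal gave 3 to 33. Between 4 and 7 dpi, the count of 0 became 1 with an offset of 0.05, with the ribosomal RNA covariate, with equal sums without ribosomal RNA and with the random block. It was 11 with equal sums including ribosomal RNA, 3 at an adjusted p under 0.1, and 0 to 2 with an animal left out. Between 4 and 14 dpi, the count of 3 became 1 with only the groups compared, an offset of 0.05, quantile normalization, the covariate and no trend. It was 136 with equal sums including ribosomal RNA, 7 without it, 6 at an adjusted p under 0.1, and 1 to 14 with an animal left out (14 without A10-1). With equal sums including ribosomal RNA, 4 of the 16 SDEGs between 4 dpi and sham were shared with the 14 then called. Under that setting, the genes at an unadjusted p under 0.05 numbered 206 higher and 79 lower over all genes, 6 for homeostatic microglia, 2 for class I, 9 for phagocyte and lysosome, 3 for cytokine receptors, and 0 for the precursor list. They numbered 14 for disease-associated microglia, 11 for the Fc receptor and ITAM list and 8 for complement. For interferon-stimulated genes there were 7, for reactive astrocytes 5, and for cell proliferation and class II 3 each. Homeostatic astrocytes, endothelial cells and pericytes had 0. For the 129 named genes, 2301 of the recomputed values kept direction and call, 110 lost the call and 30 gained it. For 58 list medians, 31 recomputed values differed from the reported one by more than 1 SD of the list's score among sham animals, and 1071 differed by less. No named gene changed sign, but 59 of the recomputed list medians, in 22 lists, did, most of them within that SD. Among lists described above, these were the motor neuron list (0.07 without A10-4), immediate early genes (0.05 without A10-1), cytokines and chemokines (-0.02 without A11-1), and the lists with medians near 0. No paired analysis was possible because the groups share no replicate numbers. The cause of these changes was not tested. The 4 and 5 animals and the rounding of low values to 0.1 limit the precision, and 548 genes had an SE over 0.3.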

Other observations

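Etv5, which passed the adjusted threshold but not the fold limit, is a target of signalling through the kinase ERK. A list of 22 ERK feedback and target genes was therefore drawn up after the values were seen, and it supports nothing beyond its description. Of these, 21 were lower at 4 dpi, 6 of them at an unadjusted p under 0.05 against 2.37% of all genes, with a median log2 fold change of -0.17. Errfi1, an inhibitor of the EGF receptor, was 28.5, 23.8, 30.4 and 30.6 at 4 dpi and 36.4, 39.3, 31.2, 34.1 and 33.8 in sham animals. All of its 4 dpi values lay below all sham values (log2 fold change -0.30, limma adjusted p = 0.287). With equal sums including ribosomal RNA, 0 genes of the list reached the unadjusted limit, while its median was -0.15.

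Hormone genes of the pituitary had low values. Of the 4 with a row, 3 were higher at an unadjusted p under 0.05, against 2.78% of all genes, and 2 without A9-4. Gh, growth hormone, was 0.8, 1.8, 0.7 and 5.4 at 4 dpi and 0.0 to 0.1 in sham animals, and Prl, prolactin, was 1.0, 2.5, 0.4 and 6.9 against 0.0 to 0.2. Pomc, the precursor of ACTH and endorphin, was 0.4, 2.8, 7.4 and 5.0 against 0.2 to 0.5. None was an SDEG, and Pomc overlapped between groups through A10-1. The order of the animals differed between Pomc and both other genes. Whether these reads came from the spinal cord was not tested.

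Small noncoding RNA lay low in the ranking, on a list partly taken from genes the study chose on these animals. Of 20 with a row, 19 had a negative log2 fold change, with a median of -0.39, and 4 were lower at an unadjusted p under 0.05. That count was 2 without A10-1, 6 without A9-2 and 7 without A12-3. Rny1, a Y RNA bound by the Ro protein, was 2.2, 2.0, 3.1 and 1.9 at 4 dpi and 4.4, 4.0, 5.8, 6.6 and 3.5 in sham animals, without overlap. Ribosomal protein genes were the reverse, with 46 of 49 positive and a median of 0.14, but 0 of them reached an unadjusted p under 0.05. That median was 0.01 without the sham animal A11-1, whose score of -0.45 was the lowest.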
